A study of Mus musculus with 2 samples.

Results

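The zinc finger genes named Zfp600 to Zfp999 were examined in mouse embryonic stem cells (mESCs) with and without Setd2, the enzyme that places the trimethyl mark on lysine 36 of histone H3 over transcribed genes. They were taken by symbol alone, as Zfp followed by a number of that range and nothing else, which gave 94 genes of the 17817 in the deposited table, on 17 chromosomes. The symbols Zfp692-ps, Zfp780b and Zfp804a were left out by this rule. The data were 1 wild-type library and 1 Setd2 knockout library, sequenced on an Illumina GAIIx from lines of mixed 129SV/C57BL/6 strain at passage 10 to 12 without any specific treatment. Both lines had been grown on feeder cells, were freed of most feeders by plating on gelatin for 0.5 h, and were collected 2 days after 1 further passage on gelatin. With 1 library per genotype there was no replicate, so each difference below describes these 2 libraries, no test between genotypes was possible, and a difference of the lines other than Setd2 cannot be told apart from the knockout. How the Setd2 gene was disrupted, and whether each line was 1 clone, is not stated in the labels.

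Zfp proteins of this kind bind DNA through tandem C2H2 fingers, in each of which a pair of cysteines and a pair of histidines hold a zinc ion. Many of them also carry a KRAB domain at the amino end, which recruits the co-repressor Trim28 and through it the H3K9 methyltransferase Setdb1. In embryonic stem cells this pathway is known for silencing retroviruses and other transposable elements. KRAB zinc finger genes multiplied by tandem duplication and lie in clusters, and their transcribed bodies are known to carry H3K9 and H3K36 trimethylation together.

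The name range held both KRAB and other zinc finger genes. Coding sequences of the GENCODE annotation on the same assembly (mm9, NCBIM37) were matched for 93 of the 94 genes, and 52 of these 93 had a KRAB A-box, against 1.27% of all 16322 coding genes of the table. A further gene, Zfp641, matched the A-box in part and was counted as lacking it. At least 1 C2H2 finger was found in 89 of the 93, with a median of 10 fingers and a maximum of 33 in Zfp619. The unmatched gene was Zfp874. Zfp641 and Zfp619 are named here after their values were seen. A finger is shown for 3 members with a KRAB A-box, because it is the unit that these genes repeat. Zfp605 and Zfp872 were more than 2-fold apart, and Zfp809 is shown for its known role in silencing retroviruses. Each runs from the first cysteine codon to the end of the linker that joins it to the next finger, is 84 bases long and lies in coding exon sequence on the + strand. Capitals mark the 2 cysteine and 2 histidine codons.
Zfp605 (mm9 chr5:110556955-110557038): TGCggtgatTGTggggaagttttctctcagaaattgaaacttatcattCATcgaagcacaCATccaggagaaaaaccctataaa
Zfp872 (mm9 chr9:22004088-22004171): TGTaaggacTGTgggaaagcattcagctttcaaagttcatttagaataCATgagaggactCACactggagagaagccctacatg
Zfp809 (mm9 chr9:22043295-22043378): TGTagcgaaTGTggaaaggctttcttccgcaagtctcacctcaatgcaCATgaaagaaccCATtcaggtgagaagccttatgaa

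The canonical linker between fingers was searched by its fixed bases, on the coding strand only. It occurred in 63.4% of the matched members and in 1.84% of all coding genes. Zfp605 held 1 such linker, Zfp809 1 and Zfp872 6. Of the fingers shown above, only that of Zfp872 carries it, and those of Zfp605 and Zfp809 differ from it in the first codon.

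Repetition of this kind limits how well single genes can be measured. For each gene 20 windows of 76 bases, the read length, were taken from its exons (for Zfp874, which lacks a model, from its whole span with introns). A window was called shared when it matched another place in the genome with at most 2 mismatches or was not found at its own place. Of the 94 members 66 had no shared window and 12 had at least 20% shared. The most affected were Zfp781 (100%), Zfp600 (90%), Zfp617 (85%) and Zfp808 (85%), and their levels are uncertain. Zfp617 and Zfp808 were picked out after their values were seen. A window of each of 2 of them is shown, since it occurs at many places. The Zfp600 window had 15 other places, among them Rex2 and Gm13138, and the Zfp808 window had 24, among them Zfp934.
Zfp600 (mm9 chr4:146163103-146163178, + strand): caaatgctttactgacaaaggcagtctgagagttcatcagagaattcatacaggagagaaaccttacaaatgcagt
Zfp808 (mm9 chr13:62273141-62273216, + strand): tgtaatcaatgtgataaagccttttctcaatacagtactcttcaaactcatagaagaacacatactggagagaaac

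The libraries held 56129838 and 52041677 read equivalents (sequenced bases over genes divided by 76) in wild type and knockout, and levels are given per 1000000 of them (CPM). The members took 0.339% and 0.337%. Setd2 itself stood at 452 and 174 CPM, the wild-type library being given first here and throughout. The pluripotency gene Pou5f1 was at 558 and 544 CPM, but 11 of the 13 pluripotency markers, all past 1 CPM, were below 0, with a median log2 fold of -0.20. The lowest were Zfp42 at 283 and 68.1 CPM (24.1%, 55% of windows shared, on chromosome 8), Utf1 at 58.3% and Sall4 at 71.6%. Zfp42 was the 1 marker of this list at least 2-fold apart. The 2 above 0 were Nanog at 221 and 310 CPM (140%, 30% of windows shared) and Dppa5a at 128% (80% shared). Of 26 fibroblast markers, standing for feeder cells, 22 passed 1 CPM, 2 of these were at least 2-fold lower and 0 higher in the knockout library, 16 were below 0, and the median was -0.26. The summed level of all 26 went the other way, at 3135 and 3350 CPM, of which Fn1 alone held 2666 and 2957. Lum was listed at 0 in the knockout library. Of 19 primitive endoderm markers 13 passed 1 CPM and 7 of these were at least 2-fold lower in the knockout library. The summed level of all 19 was 1460 and 1128 CPM, and Afp was listed at 0 in both. The part of these cell types in the folds of the zinc finger genes was not tested, and in bulk RNA fewer cells of a type and less RNA per cell cannot be told apart.

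Most zinc finger genes of the range stood at similar levels in both libraries, with 1 far exception. Folds are log2((knockout + 0.5)/(wild type + 0.5)) on CPM, so they understate differences of low genes. A mean of at least 1 CPM was reached by 90 of the 94, and 84 of the 90 lay within 2-fold. The median fold was 0.08, with quartiles of -0.24 and 0.35, beside 0.05 over all 13523 genes past the same floor. Above 0 were 55 of the 90, beside 56.4% of all genes. Zfp663, Zfp641, Zfp784 and Zfp879, named here after their values were seen, were the 4 below the floor, with wild-type levels of 0.428 to 0.866 CPM and knockout levels of 0.459 to 0.776 CPM. Past 2-fold on the higher side of the knockout were 4 of 90 members, Zfp738, Zfp608, Zfp874 and Zfp872, a share of 4.44% beside 1.76% of all genes. Lower by 2-fold or more were 2 of 90, Zfp605 and Zfp827, which is 2.22% beside 2.11%. In either direction this makes 6.67% beside 3.87%. The lower share lies at the background, and the higher one rests on 4 genes, of which Zfp738 and Zfp872 reached the floor only by their knockout level.

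**Figure D1:**
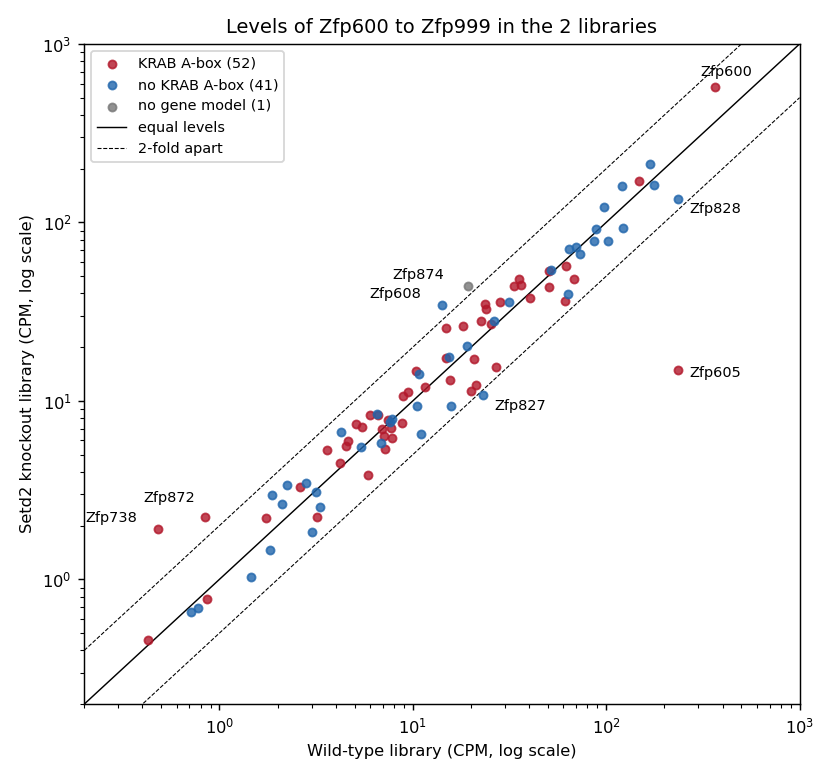
CPM in the wild-type library (x axis) and the Setd2 knockout library (y axis), both on log scales, for the 94 members, coloured by whether the coding sequence holds a KRAB A-box; the solid line marks equal levels and the dashed lines 2-fold. Zfp605 lies far below the lower dashed line, at 236 and 14.9 CPM, and most points lie between the dashed lines.

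At 1.5-fold the lower side was the fuller one. There 11 of 90 members (12.2%) were lower in the knockout library, beside 6.77% of all genes, and 7 (7.78%) were higher, beside 7.42%. In either direction 14.2% of all genes passed this threshold. Chromosome 7 carried 4 of the 11 lower members, chromosome 8 carried 3, and Zfp605, Zfp777, Zfp809 and Zfp652 lay on 4 other chromosomes. The 7 higher ones were Zfp600, Zfp691, Zfp608, Zfp867, Zfp872, Zfp874 and Zfp738.

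Zfp605 (gene number 675812 in the table, chromosome 5, 110539111 to 110558813, mm9, + strand), a KRAB gene with 12 fingers, held 13270 read equivalents in the wild-type and 776 in the knockout library. These are 236 and 14.9 CPM, so that 6.31% remained (95% exact binomial counting interval 5.86 to 6.78%). Such intervals cover counting error only, because there was 1 library per genotype. They may be too narrow even for that, as reads that carry no molecular identifier need not come from separate molecules. None of its 20 exon windows was shared (a count of 0), and the next lowest member, Zfp827, was at 46.5%. Per exon length it was second only to Zfp600 among the members in the wild-type library, at 65.9 CPM per kilobase, against 4.16 in the knockout library.

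The genes beside Zfp605 showed no difference of that size. Chfr, which begins 6.05 kilobases downstream, was at 103 and 117 CPM, and Golga3, Ankle2 and Pgam5 beyond it had folds of -0.13, 0.03 and 0.13. On the other side Gtpbp6, 2.23 kilobases away, was at 0.678 and 0.428 CPM, the unnamed loci NEWGENE51 and NEWGENE50 had folds of 0.59 and 0.60, and Crlf2, the farthest, -0.68. Of the 8 nearest genes 7 passed the floor and 0 of these were 2-fold apart. These neighbours are no members and are given only as the setting of Zfp605. As Zfp605 had the lowest fold of all members, the 250 bases before its start in the table are shown. Beside them stand those of Zfp872, which had the highest fold among members with a KRAB A-box and no shared window. Capitals mark CpG dinucleotides.
Zfp605 (mm9 chr5:110538861-110539110, + strand): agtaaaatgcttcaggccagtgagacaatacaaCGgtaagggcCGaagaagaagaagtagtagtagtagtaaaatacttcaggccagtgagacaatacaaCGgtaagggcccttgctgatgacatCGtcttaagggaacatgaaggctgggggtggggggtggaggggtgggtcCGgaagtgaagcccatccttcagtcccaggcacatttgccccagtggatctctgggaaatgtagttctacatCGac
Zfp872 (mm9 chr9:21992360-21992609, + strand): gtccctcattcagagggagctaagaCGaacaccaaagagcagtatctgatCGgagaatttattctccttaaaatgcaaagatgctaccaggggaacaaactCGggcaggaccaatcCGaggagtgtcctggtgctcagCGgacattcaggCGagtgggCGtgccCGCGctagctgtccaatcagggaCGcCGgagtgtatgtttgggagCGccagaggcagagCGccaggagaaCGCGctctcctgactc
The Zfp605 stretch held 6 CpG and the Zfp872 stretch 15, beside a median of 12 over the same stretch of all 17817 genes and of 11.5 over the members. Across the 90 members over the floor the number of CpG had no clear relation to the fold (Spearman's rho -0.02, a description across genes that share 2 libraries).

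**Figure D2:**
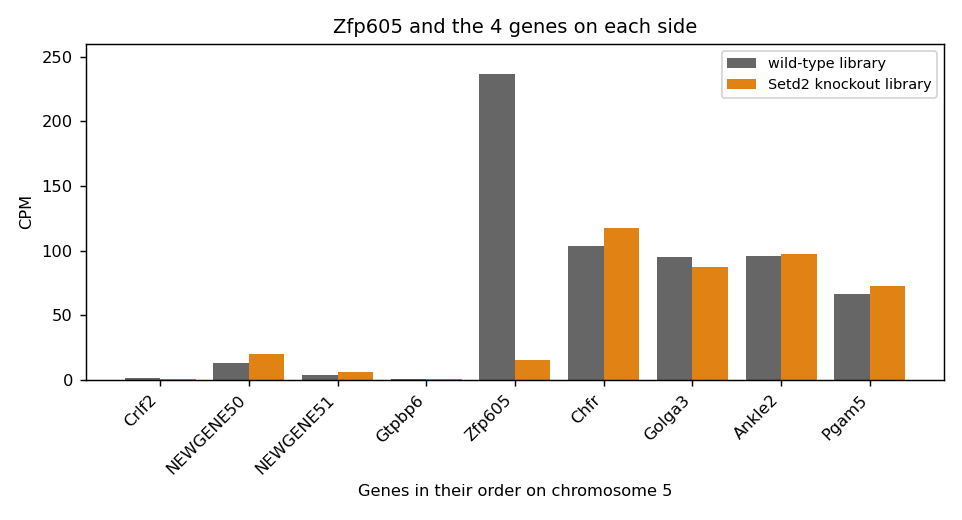
CPM (y axis) of Zfp605 and the 4 table genes on each side of it, in their order on chromosome 5, with grey bars for the wild-type and orange bars for the Setd2 knockout library; each bar is 1 library. Zfp605 stands at 236 and 14.9 CPM, while Chfr to Pgam5 on its right have bars of similar height.

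The other member at least 2-fold lower was Zfp827 (chromosome 8, 81552336 to 81717665), whose protein brings the NuRD complex to telomeres. It was at 23.1 and 10.7 CPM, 46.5% (42.0 to 51.4%), with no shared window. Its chromosome was lower as a whole, as given below, and the 8 genes nearest to Zfp827 had folds from -0.53 to 0.42.

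The 4 higher members lay on 3 chromosomes. Zfp608 (chromosome 18, 55047701 to 55149834), a single-finger gene known for repressing recombination-activating genes in thymocytes, was at 14.1 and 34.3 CPM, a knockout level 2.43 times the other (interval 2.23 to 2.65). Zfp874 (chromosome 13, 67541368 to 67552560) was at 19.3 and 44.1 CPM, 2.28-fold (2.12 to 2.45), and 20% of its windows were shared, among others with Zfp874b. Both had narrow counting intervals. The remaining pair were low. Zfp738 (chromosome 13, 67773834 to 67784481) had 27 and 99 read equivalents, 3.98-fold apart (2.56 to 6.30), with 40% of windows shared, and Zfp872 (chromosome 9, 21992610 to 22006567) had 47 and 117, 2.68-fold apart (1.90 to 3.85). Zfp872 had no shared window. Of the nearest 8 genes around each of these 4 members, those past the floor were within 2-fold except NEWGENE44 beside Zfp738, which held 4.73 CPM in wild type and was listed at 0 in the knockout.

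Several members are known for roles in this cell type or in chromatin, and they did not share 1 direction. Zfp809, which recognises the primer binding site of murine leukaemia viruses and recruits Trim28 in embryonic stem cells, was at 61.6 and 36.2 CPM, 58.8% of its wild-type amount (55.6 to 62.2%). Zfp819, a KRAB gene linked to the repression of retroelements in pluripotent cells, was at 19.96 and 11.3 CPM, 56.8% (51.3 to 62.8%). Both of these KRAB genes were thus lower in the knockout library by more than counting error, short of 2-fold. Zfp828, also known as Champ1 and needed to align chromosomes in mitosis, was at 236 and 136 CPM, 57.8%. It lies on chromosome 8. Zfp706, reported to help embryonic stem cells leave self-renewal, was 1.26-fold higher (1.21 to 1.30), with 45% of windows shared. Zfp711, an X-linked relative of Zfx that binds with the demethylase Phf8, was 1.59-fold higher (1.23 to 2.05) at 1.86 and 2.96 CPM.

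Others with chromatin or RNA roles differed little. Zfp644, a partner of the H3K9 methyltransferase G9a, was at 88.9 and 91.9 CPM, and Zfp687, a partner of Zmynd8, at 73.5 and 66.8 CPM. Zfp830, a gene of splicing and genome stability needed by the early embryo, was at 31.6 and 35.6 CPM. Zfp622, a ribosome maturation factor gene, was at 51.6 and 53.9 CPM and Zfp704 at 86.5 and 78.3 CPM. Zfp750, a regulator of epidermal differentiation, was at 7.84 and 7.96 CPM, and Zfp703, a transcriptional corepressor gene amplified in some breast cancers, at 1.46 and 1.03 CPM, a ratio of 70.6% whose interval (49.4 to 101.4%) includes equality. Zfp652, known to act with a corepressor of the ETO family, differed more, at 63.2 and 39.9 CPM, 63.2% (59.8 to 66.7%).

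Per exon length the members were lower than other genes. Their median was 3.96 CPM per kilobase over the 89 with a gene model and a mean of at least 1 CPM, beside 7.29 over 12967 genes. By the mean of both libraries the highest levels per length were those of Zfp600 (74.1 and 116 CPM per kilobase in wild type and knockout), Zfp828 (58.3 and 33.7), Zfp809 (47.9 and 28.2), Zfp869 (42.9 and 30.4), Zfp781 (34.7 and 36.7) and Zfp740 (36.7 and 33.5). For Zfp600 and Zfp781 reads from other copies cannot be told apart. Zfp600, in a zinc finger cluster of chromosome 4, was at 366 and 573 CPM, 1.56-fold higher in the knockout (1.54 to 1.59). That value may stand for several copies together.

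By chromosome the members followed different patterns, and those of chromosomes 13 and 17 were all above 0. All 9 members of chromosome 17, each with a KRAB A-box, were higher in the knockout library, by 0.21 (Zfp871) to 0.50 (Zfp677), with a median of 0.34. The other 668 genes of that chromosome had a median of 0.05, and 56.4% of all genes past the floor were above 0. The chromosome 17 members lay in 2 runs, a run being 3 or more members with starts at most 1000 kilobases apart. At 300 kilobases the first of them would not count as a run. In the first, from 21520712 to 22514248, Zfp677 was at 3.62 and 5.31 CPM, Zfp760 at 35.3 and 48.0, Zfp820 at 22.6 and 28.0 and Zfp758 at 4.62 and 5.97. Their folds ran from 0.30 to 0.50. The 11 other genes in that stretch had a median of 0.33 with 10 above 0, so the shift was not limited to the members. For this and the later runs, it was not counted how many such other genes are zinc finger genes outside the name range. In the second run, from 32902442 to 33170326, Zfp871 was at 148 and 171 CPM, Zfp811 at 9.48 and 11.3, Zfp799 at 36.4 and 44.7, Zfp870 at 33.4 and 44.3 and Zfp763 at 28.2 and 36.0. These 5 neighbours lay within 0.21 to 0.40, and 3 other genes between them had a median of 0.41. None of the 9 was 1.5-fold apart (a count of 0).

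The 7 members of chromosome 13 were also all above 0, with a median of 0.44 beside 0.12 for 497 other genes. Of those other genes 64.0% were above 0, and 5 of the 7 members lay above the median of 0.12. A run from 67170334 to 67784481 held 5 of the members. Zfp708 was at 5.45 and 7.10 CPM, Zfp759 at 7.44 and 7.83, Zfp874 and Zfp738 as above, and Zfp748 at 23.5 and 34.9. The counting interval of Zfp759 (91.4 to 121%) included equality. Folds in this run lay between 0.07 and 1.30, so its members differed among themselves. The 13 other genes in the stretch had a median of 0.29, 9 of them above 0. Zinc finger genes named below Zfp600 were among these 13, so they are not a background without such genes. They include Zfp429 (0.84), Zfp87 (0.71), Zfp58 (0.52), Zfp595 (0.20), Zfp456 (0.01) and Zfp459 (-0.57). Zfp808 (0.08) and Zfp825 (0.44), outside the run and named after their values were seen, had 85% and 60% of windows shared.

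**Figure D3:**
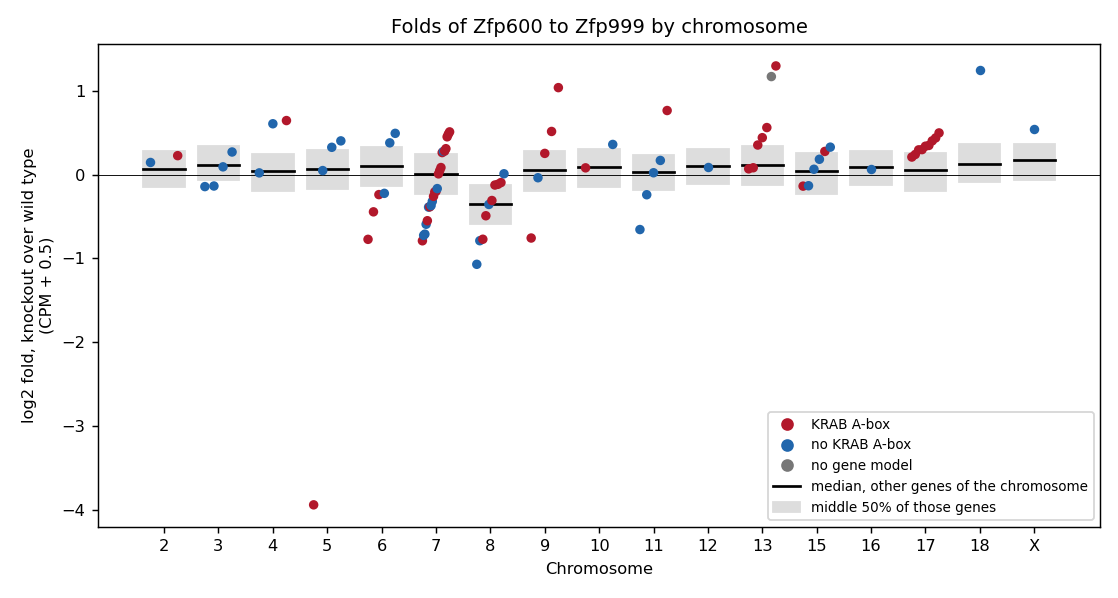
Log2 fold of the 90 members with a mean of at least 1 CPM (points, y axis) by chromosome (x axis), coloured by KRAB A-box; black bars are the median and grey boxes the middle 50% of the other genes of the same chromosome. All points of chromosomes 13 and 17 lie above 0, those of chromosome 8 lie around its own low median, and Zfp605 on chromosome 5 lies at -3.94.

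Chromosome 8 was the opposite case, and there the members went with their chromosome. The median of its 10 members was -0.33 and that of its 709 other genes -0.35, with 5 of the 10 above the latter. They ran from -1.07 (Zfp827) to 0.01 (Zfp821, below 0 under the 3 rescalings tried). A run of 3 KRAB genes from 72134553 to 72298810 held Zfp868 at 26.8 and 15.5 CPM, Zfp869 at 68.3 and 48.4 and Zfp866 at 62.0 and 57.2, with no other gene past the floor between them. The 3 neighbours thus spread from 57.8% to 92.2% of the wild-type level. Without chromosome 8 the median of all members was 0.16, beside 0.07 over all genes without it, and 1 member, Zfp605, remained at least 2-fold lower.

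Chromosome 7 carried the most members, 24, of which 23 passed the floor, and they were split. Their median was -0.20 beside 0.00 for 1028 other genes, with 10 above 0 and 13 below. Of the 15 with a KRAB A-box 9 were above 0 and the median was 0.05. Of the 8 without one 1 was above 0 and the median was -0.38. The exons of these 8 held 54.5 to 66.9% G and C bases and those of the 15 held 40.7 to 60.3%, a measure taken up below. The highest was Zfp606 at 18.2 and 26.1 CPM, 1.44-fold (1.32 to 1.56), and the lowest Zfp819. Position divided these genes as well. In a run from 6083091 to 7162709, Zfp667 (0.45), Zfp772 (0.31) and Zfp773 (0.26) were above 0 and Zfp787 (-0.32), the only one without a KRAB A-box, was below. The 11 other genes in that stretch had a median of 0.36, with 8 above 0. In a run from 50551893 to 50873649 all 4 members were below 0, with Zfp658 at -0.20, Zfp715 at -0.21, Zfp719 at -0.26 and Zfp819 at -0.79. Their 3 other neighbours had a median of 0.21.

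The third run of chromosome 7, from 134388040 to 135029509, held 9 members with a median of -0.17, close to that of its 16 other genes (-0.19). Below 0 were Zfp668, a gene linked to DNA repair, at 15.8 and 9.34 CPM (59.2%, interval 52.9 to 66.2%), Zfp771 (-0.59), Zfp764 (-0.55), Zfp646 (-0.39) and Zfp629 (-0.17). Above 0 were Zfp688 (0.28), Zfp768 (0.28), Zfp689 (0.08) and Zfp747 (0.01). Zfp747 and Zfp764 had 35% and 30% of windows shared, in part with each other, so their split is uncertain. The counting intervals of Zfp768 (97.9 to 163%), Zfp689 (88.5 to 128%) and Zfp747 (87.0 to 116%) included equality and that of Zfp688 (100.1 to 157%) nearly did, so the folds above 0 in this run were not clear of counting error. Zfp747 also turned below 0 under the rescalings.

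**Figure D4:**
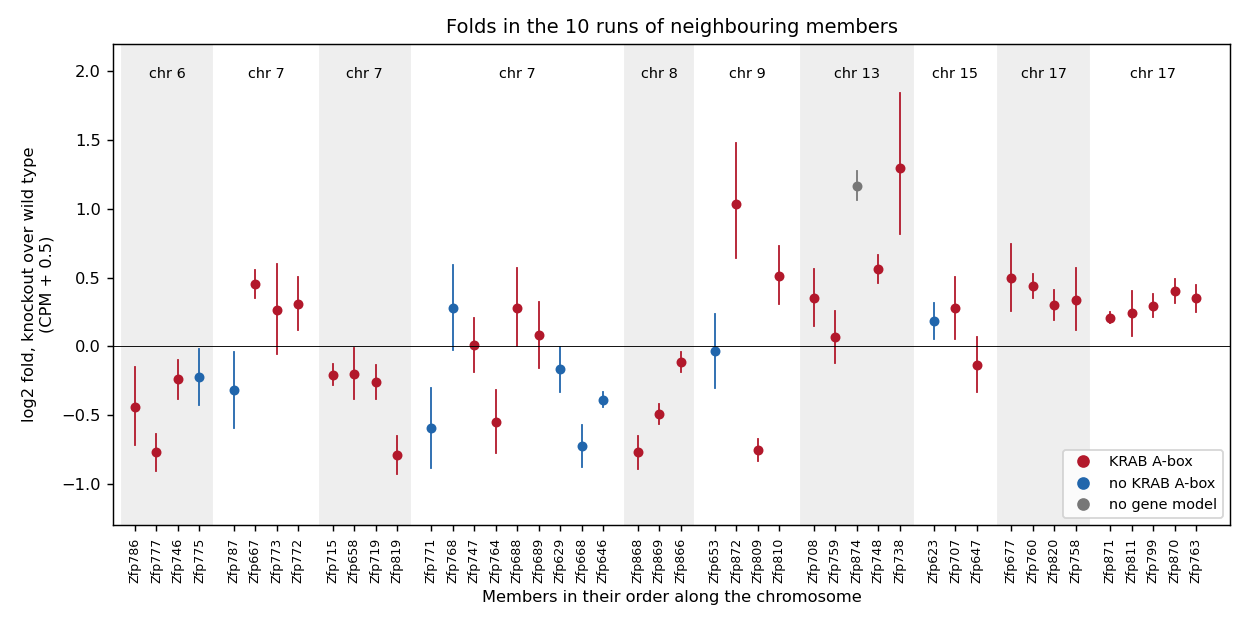
Log2 fold (y axis) of the 45 members in 10 runs, in their order along each chromosome (x axis), with vertical lines for the 95% counting interval and colours for the KRAB A-box; shading separates the runs. Both runs of chromosome 17 and that of chromosome 13 lie above 0, and those of chromosome 6, chromosome 8 and the second run of chromosome 7 lie below 0.

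Chromosome 6 had a median of -0.23 over 6 members beside 0.10 for 634 other genes. Its run from 47769265 to 48573226 lay wholly below 0, with Zfp777 at 21.3 and 12.3 CPM (57.5%, 52.2 to 63.4%), Zfp786 at 3.21 and 2.23, Zfp746, known as the Parkin substrate PARIS, at 15.6 and 13.1 and Zfp775 at 6.85 and 5.79. The 9 other genes of that stretch had a median of -0.18. Zfp637, away from the run, was at 0.49.

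On chromosome 9 neighbours went opposite ways. In a run from 21859904 to 22112082 Zfp872 (1.04) and Zfp810 (0.51) were above 0 and Zfp809 (-0.76), which lay between them, was below, while Zfp653 was at -0.04. The median of the 5 members was 0.25 beside 0.05 for 756 other genes.

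The remaining chromosomes had few members. The medians were 0.61 on chromosome 4 (3 members), where Zfp691 was 1.58-fold higher, 0.19 on chromosome 5 (4), 0.12 on chromosome 15 (6 of 7 past the floor), 0.02 on chromosome 11 (5 of 6, with the sign turning under 5 of 9 alternatives) and -0.02 on chromosome 3 (4). In that order, the other genes of these chromosomes had medians of 0.04, 0.06, 0.04, 0.03 and 0.12. On chromosome 11 the ends were Zfp867, 1.72-fold higher (1.58 to 1.88) at 14.8 and 25.5 CPM, and Zfp652. On chromosome 15 Zfp623 (0.18) and Zfp707 (0.28) lay in a run with Zfp647 (-0.14). The 42 other genes in that stretch had a median of -0.25, with 12 above 0. Chromosomes 2, 10, 12, 16, 18 and X had 1 or 2 members each past the floor, all above 0. From 58.9% to 68.9% of the other genes of each of these chromosomes were above 0 as well. The members of chromosomes 12 (0.086 beside 0.104) and 16 (0.072 beside 0.095) and 1 of the 2 on chromosome 10 lay below the median of those genes.

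The members with a KRAB A-box had a higher median than those without, and so had other KRAB genes. Over 50 members with the box the median was 0.22, with 32 above 0 (64%). Over 39 without it the median was 0.02, with 22 above 0 (56.4%), beside 56.4% of all genes. Without chromosomes 7 and 8, whose members had medians below 0, the values were 0.29 and 0.09, with 23 of 29 and 20 of 27 above 0. Without chromosome 8 alone they were 0.26 and 0.06, with 32 of 44 and 21 of 35 above 0. Of all genes without chromosome 8, 58.5% were above 0. The 150 KRAB genes outside the name range had a median of 0.22 as well, so this value is not particular to it. Of the 172 genes named Zfp1 to Zfp599 past the floor, 1 (0.58%) was at least 2-fold higher, beside 1.76% of all genes. At least 2-fold lower were 6 (3.49%), beside 2.11%, with Zfp42 of chromosome 8 among them. The median of the 172 was -0.01. Within that range the KRAB genes had a median of 0.13 and the others of -0.04. The last genes before the range went both ways. Zfp595 and Zfp597 were at 117% and 130% of the wild-type level, and Zfp598 and Zfp599 at 86.9% and 97.7%. The counting intervals of Zfp595 (97.2 to 140%) and Zfp599 (91.1 to 105%) included equality.

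Base composition moved with these folds. The exons of KRAB members had a median of 43.8% G and C bases, and those of other members 50.9%, beside 50.2% for all genes. Over 89 members the fold was lower where exons were richer in G and C (Spearman's rho -0.48, Pearson's r -0.29), and over 12967 genes likewise (rho -0.33, r -0.27). These are descriptions across genes, which are not replicates. In the 25% of genes poorest in G and C the median was 0.27 for 42 members and 0.17 for all 3242 genes. In the richest such group it was -0.20 for 18 members and -0.13 for 3242 genes. From the poorest to the richest group, members with the box had medians of 0.27 (32 genes), 0.23 (9), -0.22 (4) and -0.14 (5). Those without it had 0.25 (10), -0.06 (6), 0.04 (10) and -0.22 (13). In the poorest group, which held most KRAB members, the 2 kinds thus lay close together. When the median of all genes of the same composition was taken off each fold, a step chosen after the data were seen, the KRAB members had a median of 0.08, those without the box -0.04 and the chromosome 17 members 0.15, with 9 of 9 above 0. On chromosome 13 it was 0.17, with 4 of 6 above 0, and on chromosome 7 -0.12. There the 15 members with the box had 0.03 and the 8 without it -0.27. The part of base composition in the differences between chromosomes was not tested beyond this.

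**Figure D5:**
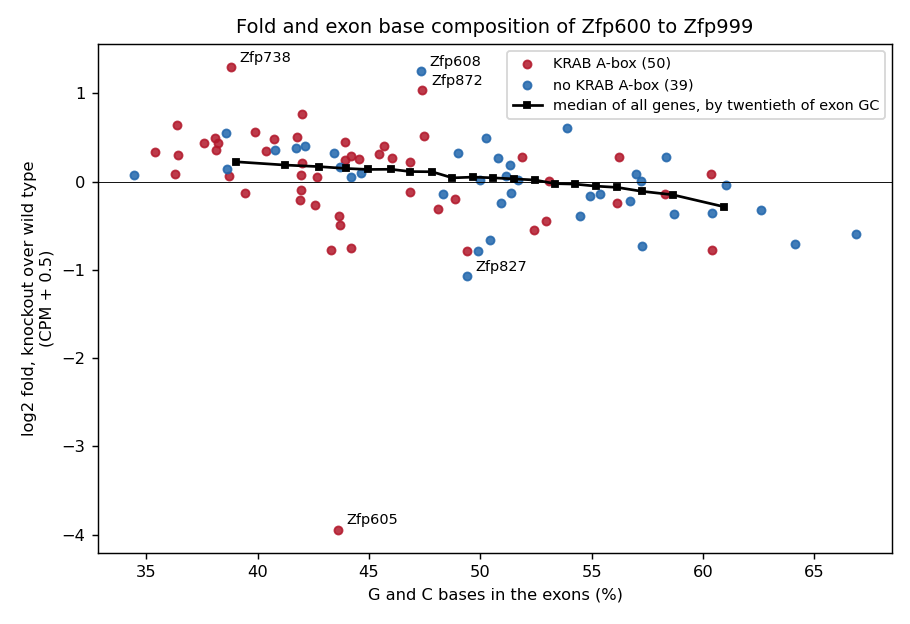
Log2 fold (y axis) against the share of G and C bases in the exons (x axis) for the 89 members with a gene model and a mean of at least 1 CPM, coloured by KRAB A-box; the black line joins the medians of all genes in twentieths of that share. The line slopes from above 0 at the left to below 0 at the right, members follow it with a wide spread, and Zfp605 lies at -3.94.

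The partners through which KRAB zinc finger proteins act were mostly close in the 2 libraries. Of 21 listed genes 20 were found, and their median fold was -0.01, with 0 at least 2-fold higher and 1 at least 2-fold lower. Trim28 was at 1562 and 1546 CPM, a ratio of 99.0%, and Setdb1 at 280.0 and 277 CPM, 99.1%. Both core genes of the pathway thus stood at nearly the same level in the 2 libraries. The lower one was the deacetylase gene Hdac1, at 55.7 and 19.6 CPM, 35.2%, with 35% of its windows shared. The HUSH complex gene Pphln1 was 1.69-fold higher (1.62 to 1.76) and the remodeler gene Chd3 1.59-fold (1.499 to 1.69). Zfp57, a KRAB gene of imprint maintenance in this list, was at 72.3% (71.3 to 73.4%).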

How the data were processed

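RNA from 1 wild-type and 1 Setd2 knockout mESC culture was sequenced. CASAVA 1.6.0, TopHat 1.0.13 and build mm9 are named, with no role or order, in the submitters' processing notes, and how reads were counted is not stated there. The deposited values, called RPKM in the file header, behave as log2(x + 1) of the bases sequenced over a gene divided by the read length of 76, with no scaling by depth or length: 85.9% and 85.7% of back-transformed values under 200 were whole multiples of 1 base, to within 0.05 bases. They were therefore back-transformed to read equivalents, which were scaled by each library's total to CPM, with Python 3.11.15, numpy 2.4.6, pandas 2.3.3 and scipy 1.17.1. Multi-mapped reads may count in several genes.

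The table had 17827 rows. A symbol on several rows (10 symbols) took the row with the highest mean. Folds used a pseudocount of 0.5 CPM, a floor of 1 CPM on the mean and a threshold of 2-fold. With 1 library per genotype no test was run, and the 95% exact conditional binomial intervals of ratios cover counting error only. The fold and interval code was tested on simulated data. GENCODE vM1 models on NCBIM37 gave exons and coding sequences by symbol. Windows were aligned with minimap2 2.31. A KRAB A-box was called at 13 or more of 27 fixed positions, and runs were 3 or more members with starts at most 1000 kilobases apart.

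Named members were those at least 2-fold apart, the highest and lowest folds overall and by chromosome, the highest levels per length, members of the described runs and members with a known role. The members, gene lists and tests were chosen with earlier results of these data known. Other pseudocounts, floors, scalings, thresholds and member sets were tried.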

Additional observations from a re-analysis of the deposited data

How the results depend on the processing

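No paired analysis was possible because the design has a single library for each genotype. Medians were set against a range from the median lower to the median upper counting bound of their single genes. That range is as wide as for a typical single gene and does not measure the counting error of a median. The member median (0.08) stayed inside its range (-0.025 to 0.21) in 12 of 12 alternatives. Those of chromosomes 6, 7, 8, 9, 11 and 15 stayed inside theirs in 9 of 9 each. The member median ran from 0.020 with exon GC medians subtracted to 0.16 without chromosome 8. Inside its range the chromosome 11 median (0.02) turned below 0 in 5 of 9, down to -0.038 with no floor. That of chromosome 15 (0.12) came to 0.063 with a trimmed mean, no floor or shared windows left out and to 0.070 with the median ratio set to 0. With exon GC medians subtracted those of chromosomes 6 and 7 (-0.23 and -0.20) came to -0.14 and -0.12. The count of members at least 2-fold higher (4) became 2 with a pseudocount of 1 CPM, a floor of 5 CPM, members with shared windows left out or exon GC medians subtracted (chosen after the data were seen, with Zfp874 lacking a value), and 7 and 0 at 1.5-fold and 3-fold. The count lower (2) became 11 and 1 at these thresholds and 1 without chromosome 8. With the median ratio set to 0 or a trimmed mean the count higher became 3. The 1 higher gene among Zfp1 to Zfp599 became 0 with a pseudocount of 1 CPM or a floor of 5 CPM. Chromosome medians moved to -0.14 on chromosome 3 (floor of 5 CPM), 0.31 on chromosome 4 (shared windows left out), 0.13 on chromosome 5 with the median ratio set to 0 or a trimmed mean, and 0.066, 0.17 and 0.15 on chromosomes 5, 13 and 17 with exon GC medians subtracted. The co-repressor median became -0.065, -0.072 and -0.044 with the median set to 0, a trimmed mean and the upper quartile. Setd2 became -1.43 and -1.44 with the first 2 of these and -1.52 with exon GC medians subtracted. These scalings amount to shifts of -0.054, -0.061 and -0.034 before the pseudocount, which lessens them for low genes, and over them and the pseudocounts 4 of 67 named members changed sign (Zfp644, Zfp747, Zfp750 and Zfp821). With a run gap of 300 kilobases there were 7 runs in place of 10. The first runs of chromosomes 7 and 17 and that of chromosome 15 were no longer runs, and those of chromosomes 6 and 13 held 3 members each. Depth limits the low members: Zfp738 and Zfp872 rest on 27 and 47 wild-type read equivalents.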
